A study of Bos taurus with 15 samples.

Results

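The genes described here carry pyruvate into the mitochondrion and around the tricarboxylic acid (TCA) cycle. They were given as a list of 34 symbols running from lactate dehydrogenase to the malic enzymes, and a member was measured where a transcript cluster of the Bovine Gene 1.0 ST Array carries that symbol alone. This held for 33 members, each with 1 cluster, among 26773 clusters in all. MPC2 has no value because its only cluster also carries the symbol of DCAF6. All cultures were of bovine granulosa cells, the steroid-producing lining of the ovarian follicle. The cells were aspirated from pooled abattoir ovaries, which by the authors' account yields almost only granulosa cells. They were frozen, thawed and grown in medium with FSH, IGF-1, insulin and androstenedione until day 8. For 5 cultures the medium also held 30 mM sodium L-lactate, for 5 it held 30 mM NaCl as vehicle control, and 5 were left untreated. Each culture was measured on 1 array. Ovaries were taken without regard to the age of the animals.

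Lactate enters metabolism through lactate dehydrogenase, which converts it to pyruvate and reduces NAD in doing so. A carrier of the inner mitochondrial membrane brings pyruvate to the pyruvate dehydrogenase complex, which makes acetyl-CoA and is switched off by PDH kinases and switched on by PDH phosphatases. Pyruvate carboxylase instead makes oxaloacetate, and the malic enzymes lead malate back to pyruvate. Granulosa cells are known to be strongly glycolytic and to release lactate and pyruvate, which the oocyte uses as fuel.

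The values are log2 signals after RMA, so that a log2 difference of 1 is a doubling of the signal. The array medians lay between 4.52 and 4.60, and arrays of the same group correlated at 0.995 to 0.997. Groups were compared with limma over all clusters. The words changed, rose and fell stand for an adjusted p under 0.05 whatever the fold, and a gene is called differentially expressed where its fold change also exceeded 1.5. Granulosa markers were present in every group, with group means from 7.75 to 8.97 for CYP19A1 and from 8.98 to 9.27 for FSHR. The dimmest was AMH, with 5.40 to 6.13. Of 8 granulosa markers 6 fell (75%) and none rose with L-lactate against NaCl, and CYP19A1 and AMH were differentially expressed. With NaCl against untreated cells 6 rose (75%) and none fell. With L-lactate against untreated cells 4 fell and 2 rose (75% changed). The 2 were NR5A2, by 0.27 (adjusted p = 1.1e-06), and GATA4, by 0.16 (adjusted p = 0.032). Of all clusters 22.2%, 11.9% and 27.1% changed in these 3 comparisons, in the order given. For clusters with 1 symbol and a mean signal of at least 7 the shares were 50.4%, 27.1% and 57.8%. The average signal of the 8 markers ranged over the arrays from 8.54 to 8.68 with L-lactate and from 8.99 to 9.12 with NaCl. Without treatment it ranged from 8.79 to 8.88. The part of this shift in the results below was not tested. Of the 5 oocyte markers none exceeded a group mean of 3.37. Of the 5 leukocyte and the 5 endothelial markers PTPRC and PECAM1 were lowest, with highest group means of 2.83 and 3.30, and CD68 and VWF highest, with 5.36 and 5.53. CD68 and VWF rose with L-lactate against NaCl, by 0.44 (adjusted p = 6.0e-05) and 0.31 (adjusted p = 6.6e-04), and no other marker of these 3 lists changed there. Of 3 theca markers, the enzyme CYP17A1 did not exceed a group mean of 3.97, whereas INSL3 and NR2F2 read up to 7.70 and 7.02. NR2F2 fell with L-lactate, by 0.20 against NaCl (adjusted p = 0.011) and by 0.22 against untreated cells (adjusted p = 0.0044). INSL3 fell by 0.69 with L-lactate (adjusted p = 0.0015) and by 0.64 with NaCl, both against untreated cells. Between L-lactate and NaCl it did not change (adjusted p = 0.85). Of 4 stromal markers, PDGFRA and DCN rose by 0.59 (adjusted p = 9.6e-07) and 0.48 (adjusted p = 8.1e-04) with L-lactate against NaCl, COL3A1 fell by 0.43 (adjusted p = 5.3e-04), and LUM, at 11.6 to 11.8, had a log2 difference of 0.00087 (adjusted p = 0.99). Against untreated cells PDGFRA rose by 0.86 and COL3A1 fell by 1.10. These shifts exceed most of those of the members, and their part in the results was not tested. In such bulk samples fewer cells of a type and less RNA per cell cannot be told apart.

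Changes within the pathway were frequent and small. Between L-lactate and NaCl treated cells 13 of 33 members rose and 4 fell, and none was differentially expressed, against 1.89% of all clusters that were (1.28% higher and 0.601% lower). The strongest increases were those of SUCLA2, PDK2 and LDHA, and the strongest decrease was that of PDP2. The 17 changed members were 51.5% of the list, where 22.2% of all clusters changed (10.7% higher and 11.5% lower). Most members have a bright signal, however, and of the 4834 clusters with 1 symbol and a mean signal of at least 7 a share of 50.4% changed, compared with 13 of 26 members (50.0%) above the same signal. The bright members therefore changed about as often as other bright genes. Of the 7 dimmer members 4 changed (LDHA, PDK2, PDP2 and ME3), where 19.1% of 13623 clusters with 1 symbol and such a signal did, a number of members too small to be read further. The median log2 difference of all 33 members was 0.063, that of all clusters -0.011. For the 26 bright members it was 0.070, and for all bright clusters with 1 symbol -0.0045.

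Between L-lactate treated and untreated cells 13 members rose and 7 fell, 60.6% of the list. The share of changed clusters was 27.1% over the whole array (13.3% higher and 13.7% lower) and 57.8% over the bright ones, to which 15 of 26 bright members (57.7%) compare. Here 2 members were differentially expressed, SUCLA2 upward and PDK4 downward, where 3.27% of all clusters were (1.93% higher and 1.33% lower). NaCl alone changed fewer members, with 5 higher and 5 lower than in untreated cells (30.3% of the list). Of all clusters 11.9% changed (6.13% higher and 5.81% lower), and of the bright ones 27.1%, beside 7 of 26 bright members (26.9%). No member was differentially expressed with NaCl, as 1.15% of all clusters were (0.403% higher and 0.743% lower). The median of the members was 0.055 for L-lactate and 0.012 for NaCl against untreated cells, and that of all clusters was -0.015 and 0.0016. These comparisons share arrays, so their calls are not independent of each other.

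**Figure D1:**
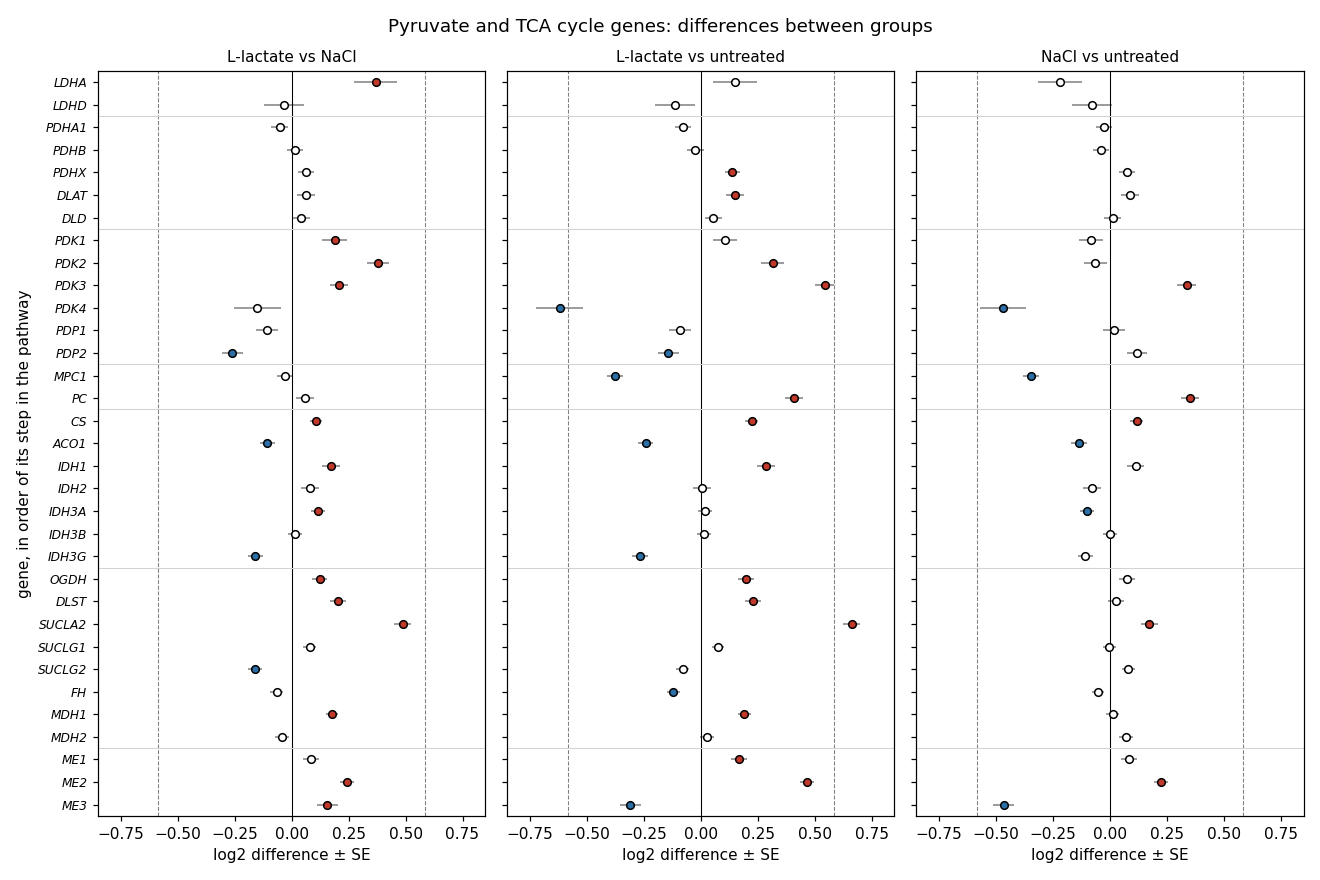
Log2 differences between groups (horizontal axis, with the standard error of limma's contrast) of the 33 measured members (vertical axis, grouped by step) in the 3 comparisons of 5 arrays against 5. Filled points had an adjusted p under 0.05 (red higher, blue lower in the group named first), open points did not, and the dashed lines mark a fold change of 1.5, which only SUCLA2 (0.66) and PDK4 (-0.62) passed, both for L-lactate against untreated cells.

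LDHA codes for the muscle-type subunit of lactate dehydrogenase. Its log2 signals were 5.51, 5.17, 5.38, 5.82 and 5.44 in the L-lactate arrays, 5.13, 4.98, 5.06, 5.06 and 5.24 in the NaCl arrays and 5.28, 5.25, 5.37, 5.45 and 5.21 in the untreated arrays. With L-lactate the values scattered most (SD 0.24, against 0.10 in each control), 4 of 5 arrays lay above every NaCl array, and the untreated arrays overlapped with both other groups. The gene rose by 0.37 over NaCl (SE 0.09, adjusted p = 0.0098). Against untreated cells L-lactate differed by 0.15 (SE 0.09, adjusted p = 0.29) and NaCl by -0.22 (SE 0.09, adjusted p = 0.17), so the increase over the vehicle did not recur against the untreated control. LDHD, the mitochondrial dehydrogenase of D-lactate, had group means of 4.84 ± 0.16 (SD, n = 5), 4.87 ± 0.10 and 4.95 ± 0.17 with L-lactate, with NaCl and without treatment. None of its differences passed, and its 95% interval for L-lactate against NaCl reached from -0.22 to 0.15.

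The pyruvate dehydrogenase complex consists of the E1 subunits PDHA1 and PDHB, the acetyltransferase DLAT, the dihydrolipoamide dehydrogenase DLD and the anchoring protein PDHX. None of its 5 genes changed between L-lactate and NaCl treated cells, where 22.2% of all clusters and 50.4% of the bright ones did. All differences lay between -0.05 and 0.06. With so few genes this is not read as particular to the complex. PDHA1, the subunit that the kinases phosphorylate, read 9.18 ± 0.04 (SD, n = 5) with L-lactate, 9.23 ± 0.03 with NaCl and 9.26 ± 0.07 without treatment. PDHB stood at 8.59 ± 0.03, 8.58 ± 0.06 and 8.62 ± 0.04 in the same order, and DLD at 8.00 ± 0.07, 7.96 ± 0.05 and 7.95 ± 0.02. For PDHB the 95% interval of the difference between L-lactate and NaCl was -0.06 to 0.09.

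DLAT, which forms the core of the complex, had log2 signals of 8.64, 8.60, 8.63, 8.70 and 8.57 with L-lactate, 8.62, 8.60, 8.56, 8.57 and 8.47 with NaCl and 8.46, 8.46, 8.43, 8.44 and 8.59 in untreated cells. It rose by 0.15 from untreated to L-lactate treated cells (SE 0.04, adjusted p = 0.0099), with 1 untreated array at 8.59 inside the L-lactate range. PDHX read 7.38, 7.38, 7.39, 7.31 and 7.39 with L-lactate, 7.27, 7.32, 7.37, 7.29 and 7.28 with NaCl and 7.32, 7.22, 7.19, 7.21 and 7.22 without treatment. It rose by 0.14 (SE 0.03, adjusted p = 0.0053), again with a single untreated array inside the other range. For both genes the NaCl mean lay between the other means, and neither step from NaCl passed the test. Against untreated cells 40% of the complex thus changed with L-lactate, beside 27.1% of all clusters and 57.8% of the bright ones.

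The 4 PDH kinases phosphorylate the complex and so close the main entry of pyruvate into the cycle. Compared with NaCl, 3 of them rose with L-lactate, while a PDH phosphatase fell. Of the 6 kinase and phosphatase genes 66.7% changed, beside 22.2% of all clusters and 50.4% of the bright ones. PDK2, a widely expressed isoform, had log2 signals of 7.06, 6.99, 6.91, 7.05 and 7.10 with L-lactate, 6.69, 6.67, 6.75, 6.61 and 6.51 with NaCl and 6.76, 6.75, 6.71, 6.69 and 6.63 in untreated cells. All L-lactate arrays lay above all arrays of both controls, which overlapped. The log2 difference was 0.38 to NaCl (SE 0.05, fold change 1.30, adjusted p = 3.4e-05) and 0.32 to untreated cells (adjusted p = 1.3e-04). NaCl itself differed from untreated by -0.06, with a 95% interval of -0.17 to 0.04.

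PDK3, the isoform that pyruvate inhibits least, moved in steps. Its values were 9.04, 9.0, 8.97, 8.96 and 9.12 with L-lactate, 8.76, 8.86, 8.77, 8.77 and 8.89 with NaCl and 8.44, 8.43, 8.45, 8.51 and 8.54 without treatment, so that no group overlapped with another. The gene rose by 0.34 with NaCl (SE 0.04, adjusted p = 3.9e-05) and by a further 0.21 from NaCl to L-lactate (adjusted p = 0.0013), which made 0.54 over untreated cells, a fold change of 1.46 (adjusted p = 8.1e-08). PDK1, known as a target of the hypoxia-inducible factor HIF, read 8.03 ± 0.05 (SD, n = 5) with L-lactate, 7.84 ± 0.07 with NaCl and 7.93 ± 0.12 without treatment. It rose by 0.19 over NaCl (SE 0.05, adjusted p = 0.019). Without NaCl replicate 5 its adjusted p was 0.050, just over the threshold. The difference of 0.11 to untreated cells did not pass (adjusted p = 0.18), but was 0.16 (adjusted p = 0.013) without untreated replicate 1, which at 8.13 lay far above the other 4.

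PDK4 went the other way. This isoform is known for its induction by fasting and fatty acids. Its values were 3.25, 3.51, 3.52, 3.28 and 3.35 with L-lactate, 3.26, 3.96, 3.43, 3.62 and 3.39 with NaCl and 4.01, 4.00, 4.00, 4.02 and 3.97 in untreated cells. The untreated arrays lay close together (3.97 to 4.02) and above every treated array, while the NaCl arrays scattered (SD 0.27) and covered most of the L-lactate range. PDK4 fell by 0.62 with L-lactate (SE 0.10, 1.54-fold lower, adjusted p = 2.4e-04) and by 0.47 with NaCl (SE 0.10, adjusted p = 0.0062), both against untreated cells. L-lactate differed from NaCl by -0.15 (95% interval -0.37 to 0.07, adjusted p = 0.37). All 15 values lay below the array medians, and signal over background was not analysed here.

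The phosphatases reopen the complex. PDP2 read 6.69, 6.69, 6.85, 6.75 and 6.65 with L-lactate, 7.01, 7.04, 7.0, 6.97 and 6.92 with NaCl and 6.92, 6.94, 6.83, 6.76 and 6.88 without treatment. Every L-lactate array was below every NaCl array, and the untreated arrays overlapped with both groups. The gene fell by 0.26 against NaCl (SE 0.05, adjusted p = 5.1e-04) and by 0.14 against untreated cells (adjusted p = 0.028). The latter call was lost without any of L-lactate replicates 1, 2 and 5 or untreated replicates 1, 2 and 5, with adjusted p from 0.056 to 0.075. PDP1, the calcium-responsive phosphatase, had means of 7.13 ± 0.07 (SD, n = 5) with L-lactate, 7.24 ± 0.08 with NaCl and 7.22 ± 0.07 without treatment. Its difference to NaCl was -0.11 (adjusted p = 0.13), and -0.14 (adjusted p = 0.044) without NaCl replicate 5.

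**Figure D2:**
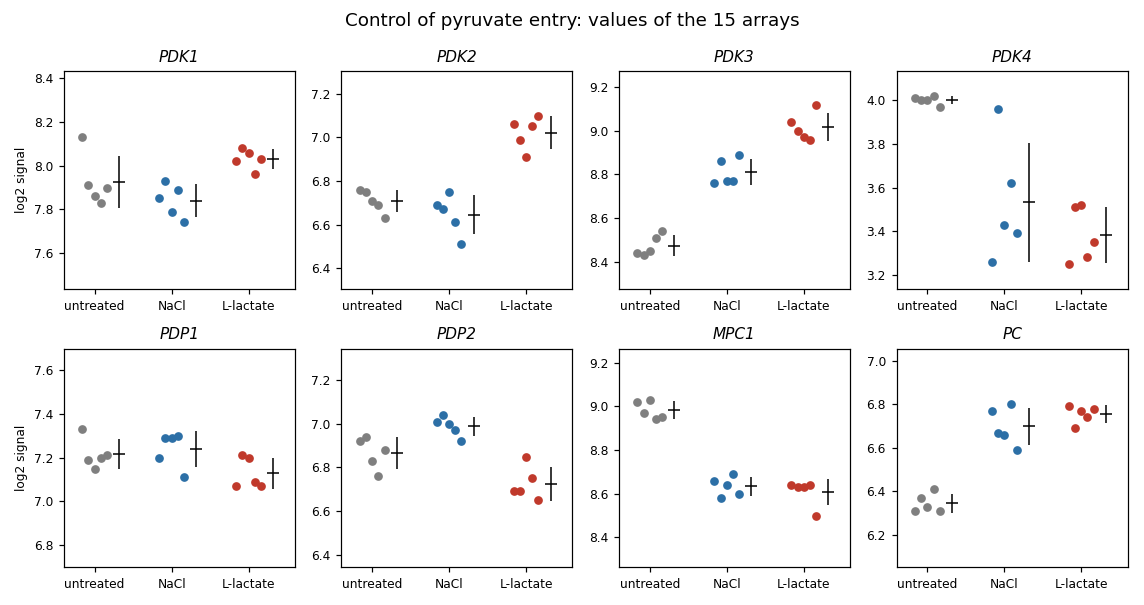
Log2 signals (vertical axes, each spanning 1 log2 unit) of the 4 PDH kinases, the 2 PDH phosphatases, the pyruvate carrier subunit MPC1 and pyruvate carboxylase PC, with 1 point per array, 5 arrays per group, and the mean ± SD beside the points. PDK2 was high in the L-lactate arrays alone (6.91 to 7.10), whereas MPC1 and PC stood apart in the untreated arrays, at 8.94 to 9.03 and 6.31 to 6.41.

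MPC1 acts before the complex and PC beside it on the same pyruvate. The main step of both genes was between untreated cells and both salts. MPC1 is an obligate subunit of the mitochondrial pyruvate carrier. Its values were 8.64, 8.63, 8.63, 8.64 and 8.50 with L-lactate, 8.66, 8.58, 8.64, 8.69 and 8.60 with NaCl and 9.02, 8.97, 9.03, 8.94 and 8.95 in untreated cells. It fell by 0.35 with NaCl (SE 0.04, adjusted p = 1.1e-05) and by 0.38 with L-lactate (SE 0.04, adjusted p = 1.2e-06), and the treated groups overlapped, with a difference of -0.03 (95% interval -0.11 to 0.05).

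PC codes for pyruvate carboxylase, the enzyme that refills the cycle with oxaloacetate. Its values were 6.79, 6.69, 6.77, 6.74 and 6.78 with L-lactate, 6.77, 6.67, 6.66, 6.80 and 6.59 with NaCl and 6.31, 6.37, 6.33, 6.41 and 6.31 without treatment. Here too the treated arrays overlapped with each other and not with the untreated arrays, but in the opposite direction to MPC1. PC rose by 0.35 with NaCl (SE 0.04, adjusted p = 3.2e-05) and by 0.41 with L-lactate (SE 0.04, adjusted p = 1.9e-06). Between the treatments the difference was 0.06 (95% interval -0.03 to 0.15).

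The first steps of the cycle lead from oxaloacetate and acetyl-CoA over citrate to 2-oxoglutarate. Of 7 genes, 3 rose and 2 fell with L-lactate against NaCl (71.4%, beside 22.2% of all clusters and 50.4% of the bright ones). CS, the citrate synthase that starts the cycle, read 9.95 ± 0.03 (SD, n = 5) with L-lactate, 9.84 ± 0.03 with NaCl and 9.73 ± 0.03 without treatment. The steps were small, 0.12 from untreated to NaCl (adjusted p = 0.0095) and 0.11 from there to L-lactate (adjusted p = 0.010), but no group overlapped with another. ACO1, the cytosolic aconitase that doubles as the iron sensor IRP1, ran in the reverse order, with 8.66, 8.65, 8.58, 8.69 and 8.63 with L-lactate, 8.75, 8.79, 8.78, 8.75 and 8.67 with NaCl and 8.88, 8.93, 8.90, 8.82 and 8.90 without treatment. It fell by 0.24 from untreated to L-lactate treated cells (SE 0.03, adjusted p = 5.7e-05). Its decrease of 0.11 against NaCl (adjusted p = 0.035) did not pass without any of L-lactate replicates 1, 2, 3 and 5 or NaCl replicates 1 to 4 (adjusted p from 0.053 to 0.094).

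Isocitrate dehydrogenase exists in an NADP-dependent form in the cytosol (IDH1) and in mitochondria (IDH2), and as the NAD-dependent enzyme of the cycle proper, built from IDH3A, IDH3B and IDH3G. IDH1 had log2 signals of 10.22, 10.31, 10.28, 10.24 and 10.36 with L-lactate, 10.10, 10.09, 10.08, 10.06 and 10.21 with NaCl and 10.05, 10.01, 10.00, 9.93 and 10.00 in untreated cells. Every L-lactate array was above every array of the controls, if only by a small margin over NaCl replicate 5. IDH1 rose by 0.17 against NaCl (SE 0.04, adjusted p = 0.0037) and by 0.29 against untreated cells (adjusted p = 3.6e-05). The step from untreated to NaCl was 0.11, without overlap, and did not pass (adjusted p = 0.076). Under some other settings with all arrays that step passed, with adjusted p from 0.023 to 0.049. IDH2 read 8.38 ± 0.05 (SD, n = 5), 8.30 ± 0.08 and 8.38 ± 0.03 in L-lactate treated, NaCl treated and untreated cells, and none of its differences passed.

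The subunits of the NAD-dependent enzyme moved apart. IDH3G, a regulatory subunit, read 8.68, 8.60, 8.62, 8.63 and 8.50 with L-lactate, 8.82, 8.75, 8.75, 8.74 and 8.76 with NaCl and 8.85, 8.86, 8.91, 8.86 and 8.88 without treatment. The groups formed a descending order without overlap. IDH3G fell by 0.16 against NaCl (SE 0.03, adjusted p = 0.0025) and by 0.27 against untreated cells (adjusted p = 1.9e-05), whereas the step from untreated to NaCl was -0.11 (adjusted p = 0.052) and lay close to the threshold. It passed without L-lactate replicates 1 or 5 or NaCl replicate 1 (adjusted p from 0.024 to 0.047), and under 4 other settings with all arrays (adjusted p from 0.016 to 0.045). IDH3A, the catalytic subunit, was lowest with NaCl, at 8.47 ± 0.04 (SD, n = 5) against 8.59 ± 0.03 with L-lactate and 8.57 ± 0.03 without treatment. Its increase of 0.12 over NaCl had an adjusted p of 0.011, and its decrease of 0.10 with NaCl an adjusted p of 0.044, which rose to between 0.053 and 0.11 without any single array other than L-lactate replicate 2. IDH3B, the other regulatory subunit, stood at 8.27 ± 0.02, 8.26 ± 0.03 and 8.26 ± 0.05, with a difference of 0.02 to NaCl (95% interval -0.05 to 0.08).

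From 2-oxoglutarate on, 4 of 8 genes rose and 1 fell with L-lactate against NaCl. These were 62.5%, beside 22.2% of all clusters and 50.4% of the bright ones. OGDH and DLST code for the dehydrogenase and the succinyltransferase of the 2-oxoglutarate dehydrogenase complex, which shares its DLD subunit with pyruvate dehydrogenase. OGDH read 9.26, 9.26, 9.26, 9.25 and 9.31 with L-lactate, 9.24, 9.10, 9.15, 9.14 and 9.10 with NaCl and 9.01, 9.07, 9.11, 9.09 and 9.07 without treatment. DLST read 9.07, 9.13, 9.15, 9.09 and 9.18 with L-lactate, 8.98, 8.94, 8.93, 8.88 and 8.89 with NaCl and 8.90, 8.97, 8.89, 8.82 and 8.90 without treatment. In both genes the L-lactate arrays were above all others while the control groups overlapped. OGDH rose by 0.12 (SE 0.03, adjusted p = 0.014) and DLST by 0.20 (SE 0.03, adjusted p = 4.6e-04) over NaCl, and NaCl differed from untreated by 0.08 and 0.03. The DLST cluster is the one with this symbol alone. A further cluster is shared with PTMS and was not used.

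SUCLA2 had the largest change of all members. It codes for the ATP-forming beta subunit of succinyl-CoA synthetase, the enzyme that turns succinyl-CoA into succinate with the gain of a nucleoside triphosphate. Its log2 signals were 9.14, 9.19, 9.17, 9.16 and 9.24 with L-lactate, 8.66, 8.72, 8.69, 8.62 and 8.78 with NaCl and 8.52, 8.48, 8.49, 8.51 and 8.60 in untreated cells. The gap between the lowest L-lactate and the highest NaCl array exceeded the range within any of the groups. SUCLA2 rose by 0.49 over NaCl (SE 0.04, fold change 1.40, adjusted p = 1.5e-07), by 0.66 over untreated cells (fold change 1.58, adjusted p = 4.3e-09) and by 0.17 from untreated to NaCl (adjusted p = 0.0052).

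SUCLG2, the GTP-forming beta subunit that takes the same place in the enzyme, moved against SUCLA2 from NaCl to L-lactate. It read 9.27 ± 0.03 (SD, n = 5) with L-lactate, 9.43 ± 0.04 with NaCl and 9.35 ± 0.04 without treatment. Its step from untreated to NaCl was 0.08, upward as for SUCLA2, and did not pass. Under some other settings with all arrays that step passed (adjusted p from 0.028 to 0.048). The gene fell by 0.16 from NaCl to L-lactate (SE 0.03, adjusted p = 9.6e-04), and its difference of -0.08 to untreated cells did not pass (adjusted p = 0.065). It passed without untreated replicate 4 (adjusted p = 0.030) and under 4 other settings with all arrays (adjusted p from 0.016 to 0.043). SUCLG1, the alpha subunit common to both enzymes, read 8.90 ± 0.04, 8.82 ± 0.02 and 8.82 ± 0.03 in the same order. Its L-lactate arrays lay above those of both controls, and the differences of 0.08 to each missed the threshold (adjusted p = 0.060 and 0.059), but passed without L-lactate replicate 2 (adjusted p = 0.044 and 0.042). With all arrays each also passed under 4 other settings, with adjusted p from 0.0066 to 0.046 against NaCl and from 0.0067 to 0.030 against untreated cells.

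The cycle closes with fumarate, malate and oxaloacetate. MDH1, the cytosolic malate dehydrogenase of the malate-aspartate shuttle, had values of 8.84, 8.87, 8.85, 8.86 and 8.83 with L-lactate, 8.64, 8.65, 8.67, 8.69 and 8.71 with NaCl and 8.71, 8.64, 8.69, 8.61 and 8.65 in untreated cells. The L-lactate arrays were tightly grouped above the controls, which overlapped. MDH1 rose by 0.18 over NaCl (SE 0.03, adjusted p = 2.5e-04) and by 0.19 over untreated cells (adjusted p = 9.5e-05), with a difference of 0.01 between the controls (95% interval -0.05 to 0.07). The mitochondrial enzyme MDH2 read 10.18 ± 0.03 (SD, n = 5), 10.22 ± 0.02 and 10.15 ± 0.05 with L-lactate, with NaCl and without treatment and passed in no comparison. FH, the fumarase, read 8.78 ± 0.03, 8.85 ± 0.01 and 8.90 ± 0.03. It fell by 0.12 from untreated to L-lactate treated cells (SE 0.03, adjusted p = 0.0033), and its difference of -0.07 to NaCl did not pass (adjusted p = 0.10), though it did under 3 other settings (adjusted p from 0.0097 to 0.044).

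The malic enzymes decarboxylate malate to pyruvate, in the cytosol (ME1) or in mitochondria (ME2 and ME3). ME2, the form that can use NAD, read 9.58, 9.58, 9.64, 9.66 and 9.61 with L-lactate, 9.36, 9.38, 9.41, 9.35 and 9.35 with NaCl and 9.20, 9.12, 9.09, 9.19 and 9.13 in untreated cells. As with PDK3, CS, IDH1 and SUCLA2, the groups ascended from untreated over NaCl to L-lactate without overlap. ME2 rose by 0.24 over NaCl (SE 0.03, adjusted p = 3.2e-05) and by 0.47 over untreated cells (adjusted p = 2.7e-08), and NaCl alone raised it by 0.22 (adjusted p = 1.6e-04).

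ME3, the mitochondrial NADP-dependent form, had values of 5.22, 5.07, 5.07, 5.11 and 4.94 with L-lactate, 4.95, 4.97, 4.96, 4.91 and 4.85 with NaCl and 5.33, 5.39, 5.37, 5.46 and 5.41 without treatment. The untreated arrays lay above all others, and the treated groups overlapped at 4.94 to 4.97. ME3 fell by 0.47 with NaCl (SE 0.05, adjusted p = 6.5e-06) and by 0.31 with L-lactate (adjusted p = 8.9e-05). It was higher by 0.16 with L-lactate than with NaCl (adjusted p = 0.023), a call that was lost without L-lactate replicates 1 or 4 or NaCl replicate 5 (adjusted p from 0.052 to 0.060). ME1, the cytosolic form that supplies NADPH for lipid synthesis, read 9.35, 9.33, 9.36, 9.35 and 9.35 with L-lactate, 9.24, 9.25, 9.27, 9.26 and 9.30 with NaCl and 9.25, 9.26, 9.10, 9.11 and 9.18 without treatment. It rose by 0.17 over untreated cells (SE 0.03, adjusted p = 0.0017), and the 0.08 to NaCl, though without overlap, did not pass (adjusted p = 0.11).

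**Figure D3:**
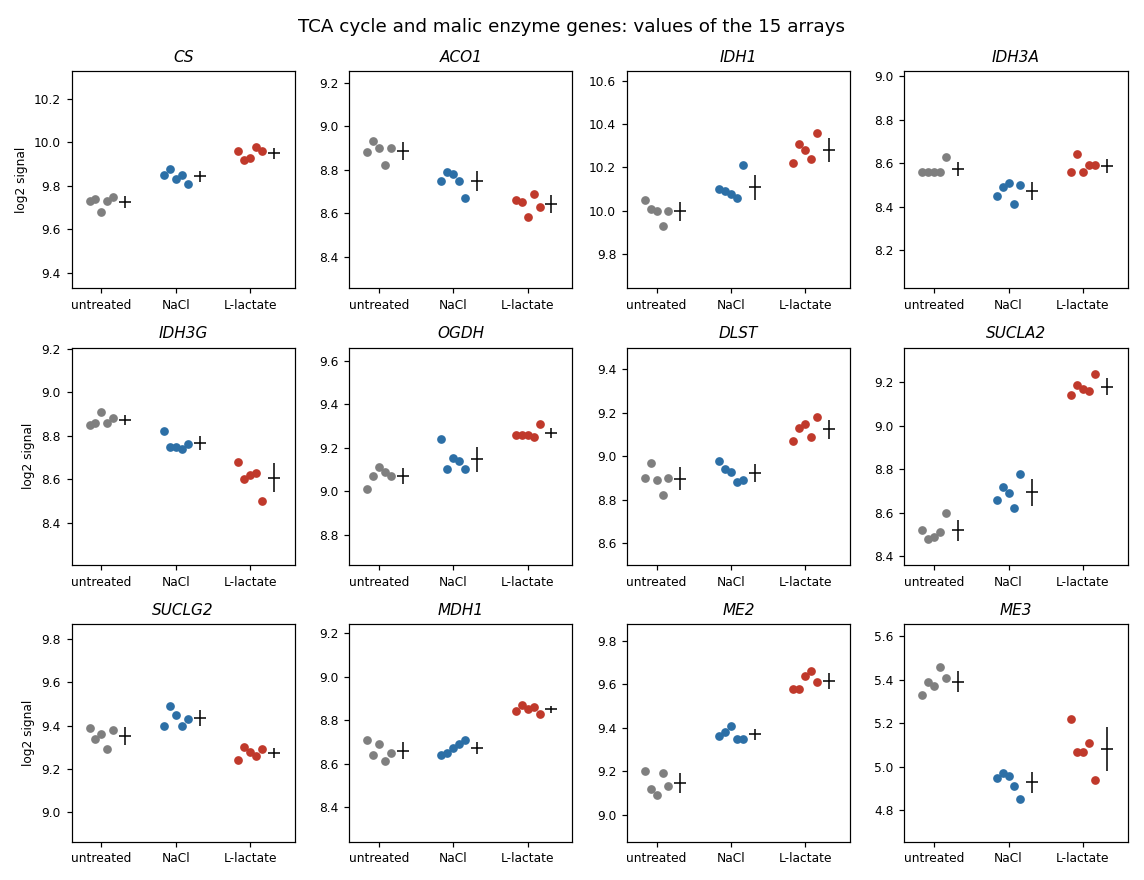
Log2 signals (vertical axes, each spanning 1 log2 unit) of 12 genes of the TCA cycle and the malic enzymes, with 1 point per array, 5 arrays per group, and the mean ± SD beside the points. SUCLA2 and ME2 ascended from untreated over NaCl to L-lactate without overlap, IDH3G descended, MDH1 and DLST were high with L-lactate alone, and ME3 was high in the untreated arrays (5.33 to 5.46).

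Read across the 3 comparisons, 24 of 33 members changed in at least 1 and 9 in none. The latter were PDHA1, PDHB, DLD, PDP1, LDHD, IDH2, IDH3B, SUCLG1 and MDH2. How many of all clusters changed in at least 1 comparison, or at both steps, was not counted. The counts across comparisons are therefore not read as particular to the pathway. In each single comparison the bright members changed about as often as the other bright clusters. Of the 17 that changed between L-lactate and NaCl, 10 had not passed between NaCl and untreated cells, among them PDK2, DLST and MDH1, and 7 had. Of those 7, SUCLA2, PDK3, ME2 and CS rose at both steps, ACO1 fell at both, and ME3 and IDH3A fell with NaCl and were higher with L-lactate than with NaCl. For MPC1, PC and PDK4 the test was passed by NaCl against untreated cells and not by L-lactate against NaCl. A gene that missed the threshold at a step may still have moved there, as the intervals given above show. The L-lactate and NaCl arrays were fully separated in 17 of 33 members (51.5%), where 19.1% of all clusters and 49.3% of the bright ones showed no overlap. The numbers for L-lactate and for NaCl against untreated cells were 18 members (54.5%) and 13 members (39.4%), beside 22.4% and 11.0% of all clusters and 54.6% and 28.0% of the bright ones. The list also holds dimmer members, and separation was not counted for its bright members alone. These shares are therefore not like for like with those of the bright clusters.

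At the borders of the cycle some changes were larger than within it. Of 37 measured further genes of the pathway and its regulators, out of 43 listed, 9 rose and 11 fell with L-lactate against NaCl, and 2 higher and 3 lower ones were differentially expressed. These shares, 54.1% and 13.5%, stand beside 22.2% and 1.89% of all clusters, and the first beside 50.4% of the bright ones. The lists were chosen with results of these data known. GPT and GPT2 code for the alanine transaminases, which interconvert pyruvate and alanine. GPT, the cytosolic enzyme, read 4.49, 4.19, 4.46, 4.19 and 4.28 with L-lactate, 5.56, 5.47, 5.52, 5.51 and 5.36 with NaCl and 5.54, 5.43, 5.56, 5.51 and 5.36 without treatment, a 2.24-fold lower signal than with NaCl (log2 difference -1.16, SE 0.07, adjusted p = 7.0e-09). GPT2, the mitochondrial enzyme, went up, with 8.27, 8.29, 8.30, 8.31 and 8.30 against 7.71, 7.69, 7.67, 7.79 and 7.71 with NaCl and 7.44, 7.39, 7.46, 7.48 and 7.55 without treatment. Its difference was 0.58 to NaCl (SE 0.03, adjusted p = 8.6e-09), marginally short of the fold threshold, and 0.83 to untreated cells. The transaminases and glutamate enzymes together had 2 of 5 genes higher and 2 lower against NaCl. These were 80%, beside the same shares of all and of bright clusters. GLUD1, which feeds glutamate into the cycle as 2-oxoglutarate, fell by 0.32 (adjusted p = 1.4e-05).

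PCK2, the mitochondrial carboxykinase that draws oxaloacetate out of the cycle, read 7.59 ± 0.11 (SD, n = 5) with L-lactate, 8.34 ± 0.13 with NaCl and 8.57 ± 0.09 without treatment, a decrease of 0.75 against NaCl (SE 0.07, adjusted p = 8.4e-07). It is the one differentially expressed gene of 10 measured further enzymes and subunits of the cycle and of pyruvate conversion. Of these 10, 4 fell and none rose (40%), beside 22.2% of all clusters and 50.4% of the bright ones that changed. Among the others that fell were SDHA and SDHB, the catalytic subunits of succinate dehydrogenase, by 0.12 and 0.13 (adjusted p = 0.0078 and 0.0049), and PDPR, the regulatory subunit of the PDH phosphatase, by 0.25 (adjusted p = 2.3e-04). ACLY, which splits exported citrate into acetyl-CoA for lipid synthesis, read 10.77 ± 0.01, 10.29 ± 0.01 and 10.08 ± 0.07 with L-lactate, with NaCl and without treatment and rose by 0.48 over NaCl (SE 0.03, adjusted p = 8.2e-08). SLC25A1, the carrier that exports the citrate, rose by 0.24 (SE 0.03, adjusted p = 5.2e-05). Of 6 measured carriers and citrate-export genes 3 rose and 2 fell (83.3%, beside the same shares of all and of bright clusters).

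The list of known PDK4 regulators had 2 of 6 genes lower with L-lactate than with NaCl and none higher. These were 33.3%, beside 22.2% of all clusters and 50.4% of the bright ones. Against untreated cells, where PDK4 fell, 3 were lower and 1 higher with L-lactate, and 2 were higher and none lower with NaCl. The first of these shares was 66.7%, beside 27.1% of all clusters and 57.8% of the bright ones. The second, for NaCl, was 33.3%, beside 11.9% of all clusters and 27.1% of the bright ones. PPARA, the fatty acid sensor that induces PDK4 in liver and muscle, was differentially expressed, with 6.48, 6.47, 6.42, 6.41 and 6.51 with L-lactate, 7.12, 7.09, 7.08, 6.97 and 7.05 with NaCl and 6.92, 6.84, 6.84, 6.96 and 6.93 without treatment. It fell by 0.60 against NaCl (SE 0.04, adjusted p = 2.0e-08) and by 0.44 against untreated cells, and it rose by 0.16 with NaCl alone. FOXO1, another inducer of PDK4 known from liver and muscle, rose by 0.43 with NaCl (SE 0.04, adjusted p = 2.6e-06) and by 0.35 with L-lactate over untreated cells. FOXO3 fell with L-lactate, by 0.21 against NaCl (adjusted p = 0.0026) and by 0.32 against untreated cells (adjusted p = 6.0e-05). PPARD fell by 0.13 with L-lactate against untreated cells (adjusted p = 0.036). Of 5 genes for lipoate attachment, which equips DLAT and DLST with their cofactor, GLRX5, a mitochondrial iron-sulfur protein, rose by 0.25 over NaCl (SE 0.03, adjusted p = 4.8e-05) and NFU1 fell by 0.12 (adjusted p = 0.027). LIPT1, a lipoyltransferase, differed by -0.17 (adjusted p = 0.079). Of 5 genes around the sugar-responsive factors MondoA and ChREBP 3 rose with L-lactate against NaCl. TXNIP and ARRDC4 passed the fold threshold, with 4.51 and 2.98, and MLXIP, which codes for MondoA, rose by 0.26 (adjusted p = 0.0015). Of the lipoate list 40% changed and of this list 60%, beside 22.2% of all clusters and 50.4% of the bright ones.

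**Figure D4:**
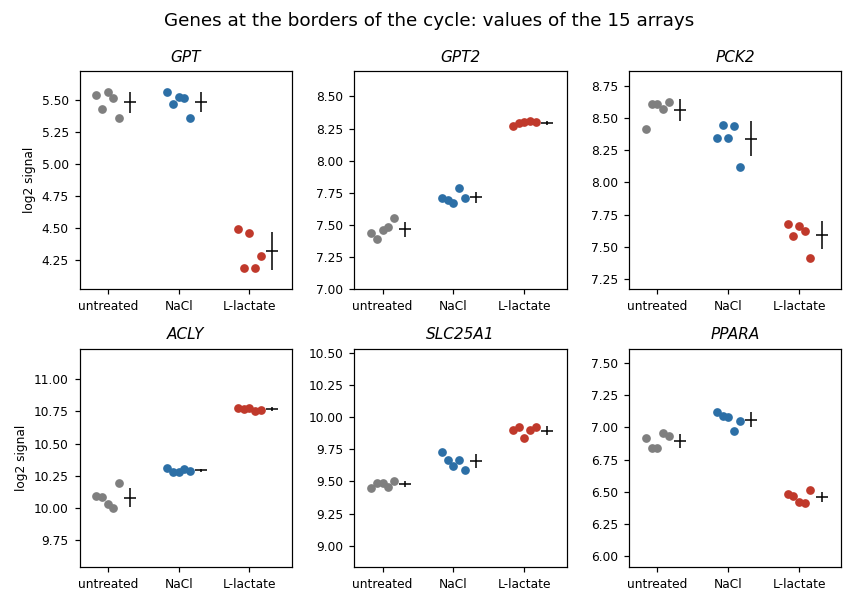
Log2 signals (vertical axes, each spanning 1.7 log2 units) of 6 genes at the borders of the cycle, with 1 point per array, 5 arrays per group, and the mean ± SD beside the points. GPT, PCK2 and PPARA were lowest and GPT2, ACLY and SLC25A1 highest in the L-lactate arrays, which overlapped with neither control in any of these 6 genes.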

How the data were processed

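The authors deposited log2 signals per transcript cluster, made from Affymetrix scans in the Expression Console (version 1.4.1.46) by background reduction, normalization and RMA summary over the 15 arrays. The values were used as deposited and without a filter. RMA compresses the differences of dim clusters. Neither detection calls nor scan dates were used here. No source says that the replicates come from separate cell pools, so a p-value reflects the spread of these 15 arrays, which may be technical. The number of arrays limits the precision.

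Gene symbols were those of the platform annotation (1 symbol for 18457 clusters, several for 688 and none for 7628). All 33 members were found by gene ID in the bovine RefSeq annotation. Groups were compared with limma 3.58.1 in R 4.3.3, in 1 fit with 3 group means over 15 arrays, with Benjamini-Hochberg adjustment over 26773 clusters. The fit was tested on simulated data. Error terms are the SD between arrays or the standard error of the contrast, and 95% intervals come from the moderated fit. Figures were drawn with matplotlib 3.10.9.

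The members, gene lists and alternatives were chosen with earlier results of these data known. Every member is named. Values of each array are given for LDHA, PDK4, differentially expressed members and, within each step, up to 3 further changed members with the largest differences. Further genes are named where differentially expressed or among the 2 largest differences of their list. SDHA, SDHB, GLUD1, NFU1, MLXIP, FOXO3 and PPARD were added after their values were seen, and so was the division of clusters at a mean signal of 7.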

Additional observations from a re-analysis of the deposited data

Results flagged for a closer look

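In 11 of 135 groups of 5 arrays (45 named genes, 3 groups each) 1 array stood so far from the other 4 that its gap exceeded Dixon's critical value, which chance gives in about 1 of 20 groups. Of the untreated arrays, replicate 1 was high for PDK1 (8.13, others 7.83 to 7.91) and PDHX (7.32, others 7.19 to 7.22). Untreated replicate 5 was high for DLAT (8.59, others 8.43 to 8.46) and IDH3A (8.63, others at 8.56). Of the NaCl arrays, replicate 5 was high for IDH1 (10.21, others 10.06 to 10.10), replicate 1 was high for IDH3G (8.82, others 8.74 to 8.76) and replicate 2 was low for FOXO1 (9.25, others 9.34 to 9.38). Of the L-lactate arrays, replicate 4 was low for PDHX (7.31, others 7.38 to 7.39), replicate 5 was low for MPC1 (8.50, others 8.63 to 8.64) and high for OGDH (9.31, others 9.25 to 9.26), and replicate 3 was low for SLC25A1 (9.84, others 9.90 to 9.92).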

How the results depend on the processing

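Apart from leaving out arrays, each member was recomputed with the 10 arrays of a comparison alone, the replicate number as a block, least squares without moderation, trended and robust moderation, a filter on dim clusters (15851 kept), arrays centred on their medians and array weights. The number of differentially expressed members stayed at 0, 2 and 0 for L-lactate against NaCl, L-lactate against untreated and NaCl against untreated cells in all of these and without any single array. PDK4, 1 of the 2, passed the filter on dim clusters only through the untreated group, where it is high, so its call under that filter is no support. The number with an adjusted p under 0.05 lay between 15 and 20, 19 and 22, and 8 and 14 under the former (17, 20 and 10 as reported) and between 15 and 17, 19 and 21, and 9 and 10 without single arrays. The median of the members for L-lactate against untreated cells moved from 0.055 to 0.079 with arrays centred on their medians, that for NaCl against untreated cells from 0.012 to 0.026, and the former lay between 0.035 and 0.076 without single arrays. Without single arrays the other medians ranged from 0.058 to 0.078 (L-lactate against NaCl) and from 0.0015 to 0.013 (NaCl against untreated). Of 47 changes of single members 42 passed under every alternative with all arrays, the exceptions being ACO1 and ME3 against NaCl, PDP2 for L-lactate against untreated cells and ACO1 and IDH3A for NaCl against untreated cells, and 0 reversed. Calls gained with all arrays were those of SUCLG1, FH and ME1 against NaCl, SUCLG1 and SUCLG2 for L-lactate against untreated cells, and LDHA, IDH1, IDH3G, SUCLG2 and MDH2 for NaCl against untreated cells, each under at least 1 alternative. Nothing says that equal replicate numbers pair the cultures. Deviations of equal numbers correlated at -0.065 to 0.065, 6 of 15 arrays correlated best with their own number, and with the replicate block 16, 20 and 9 members passed. No member has several clusters, so that alternative gave no value. Dim genes such as PDK4 are limited by the unknown signal over background.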
